A study of Mus musculus with 2 samples.

Results

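Of the 47542 DNase I hypersensitive sites (DHS) called in mouse splenic B cells, 64 lay in or within 50 kb of 9 genes best known from the T lineage. The genes were Tcf7, Lef1, Gata3, Bcl11b, Satb1, Tox, Tbx21, Eomes and Themis, out of 22350 protein-coding genes on chromosomes 1 to 19 and X. A DHS belonged to a gene when it overlapped the gene body or the 50 kb on either side, and it was a promoter DHS when any part fell between 5 kb before and 2 kb after an annotated transcription start site (TSS). Of the 9 genes, 6 had a promoter DHS, against 57.0% of all protein-coding genes, and 2 had no DHS in the window, against 23.0%, so that both counts were near the general shares. Lef1, Gata3 and Satb1 carried the highest promoter scores and the broadest promoter openings, and Tcf7, Tox and Tbx21 weaker ones. At Gata3 the highest score lay 10118 bp inside the gene, in a DHS shared with promoters of neighbouring loci. The DHS over the outermost Gata3 TSS scored 25.3, below the top promoter scores of Tcf7 (38.2) and Tbx21 (32.4) and near that of Tox (24.7). Eomes had DHS only downstream of the gene, and Bcl11b and Themis had none at all.

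The cells came from the spleens of 8 weeks old C57/Bl6 mice that carried both wild-type copies of Trp53 (Trp53+/+) and received the mock treatment, without irradiation. They were enriched with magnetic beads against B220, a surface protein of B cells. The series consists of 1 DNaseI library and 1 input library of the same kind of cells. The DNaseI library is described here from its deposited peak list, with no replicate and no second condition, so all comparisons are between genes or DHS of 1 library and no p-value can be given. Each DHS carries a score from the peak caller whose scale is not stated, and it was used only to rank DHS within this list, where it ran from 5.05 to 619.44 with a median of 32.65. No read counts are given, so the depth is unknown, and a missing DHS means that none was called.

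T cells arise in the thymus, where Notch signals switch on a series of regulators in progenitors that could still become other cells. Tcf7 and Gata3 act early in this series and Bcl11b closes it at commitment, after which Satb1, Lef1, Tox and Themis take part in the selection of thymocytes. Tbx21 and Eomes direct the effector programmes of mature T cells and natural killer cells. B cells descend from the same lymphoid progenitors under other factors such as Ebf1 and Pax5. Of the 9 genes, Themis differs in kind, since its product is a signalling protein of the T cell receptor pathway and not a DNA-binding factor.

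The label of the cells was checked against marker genes. All 8 B cell markers had a promoter DHS, with top promoter scores from 72.1 to 269. Of 8 T cell markers only Lck, a kinase that B cells of some kinds also express, had one, with a score of 92.8. Cd3d, Cd3e, Cd3g, Cd4, Cd8a, Cd8b1 and Cd28 had none. These 8 markers are part of a list of 16 T cell receptor and signalling genes given further on. In the rest of that list Cd247, Cd2, Cd5 and Lat had a promoter DHS, with scores from 24.5 to 97.7, so the check depends on the markers chosen. Among 8 myeloid and natural killer cell markers 4 had one, with scores from 18.2 to 51.1, and 4 lacked one (Csf1r, Lyz2, Mpo and Ncr1). Of 5 erythroid markers 2 had one, the higher at Klf1, a factor of red cell precursors, with a score of 177.81, above all promoter scores of the 9 genes. A DHS from a small share of other cells and a weak opening in all cells cannot be told apart in such a list, and what other cell types contributed to the DHS of the 9 genes was not tested.

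**Figure D1:**
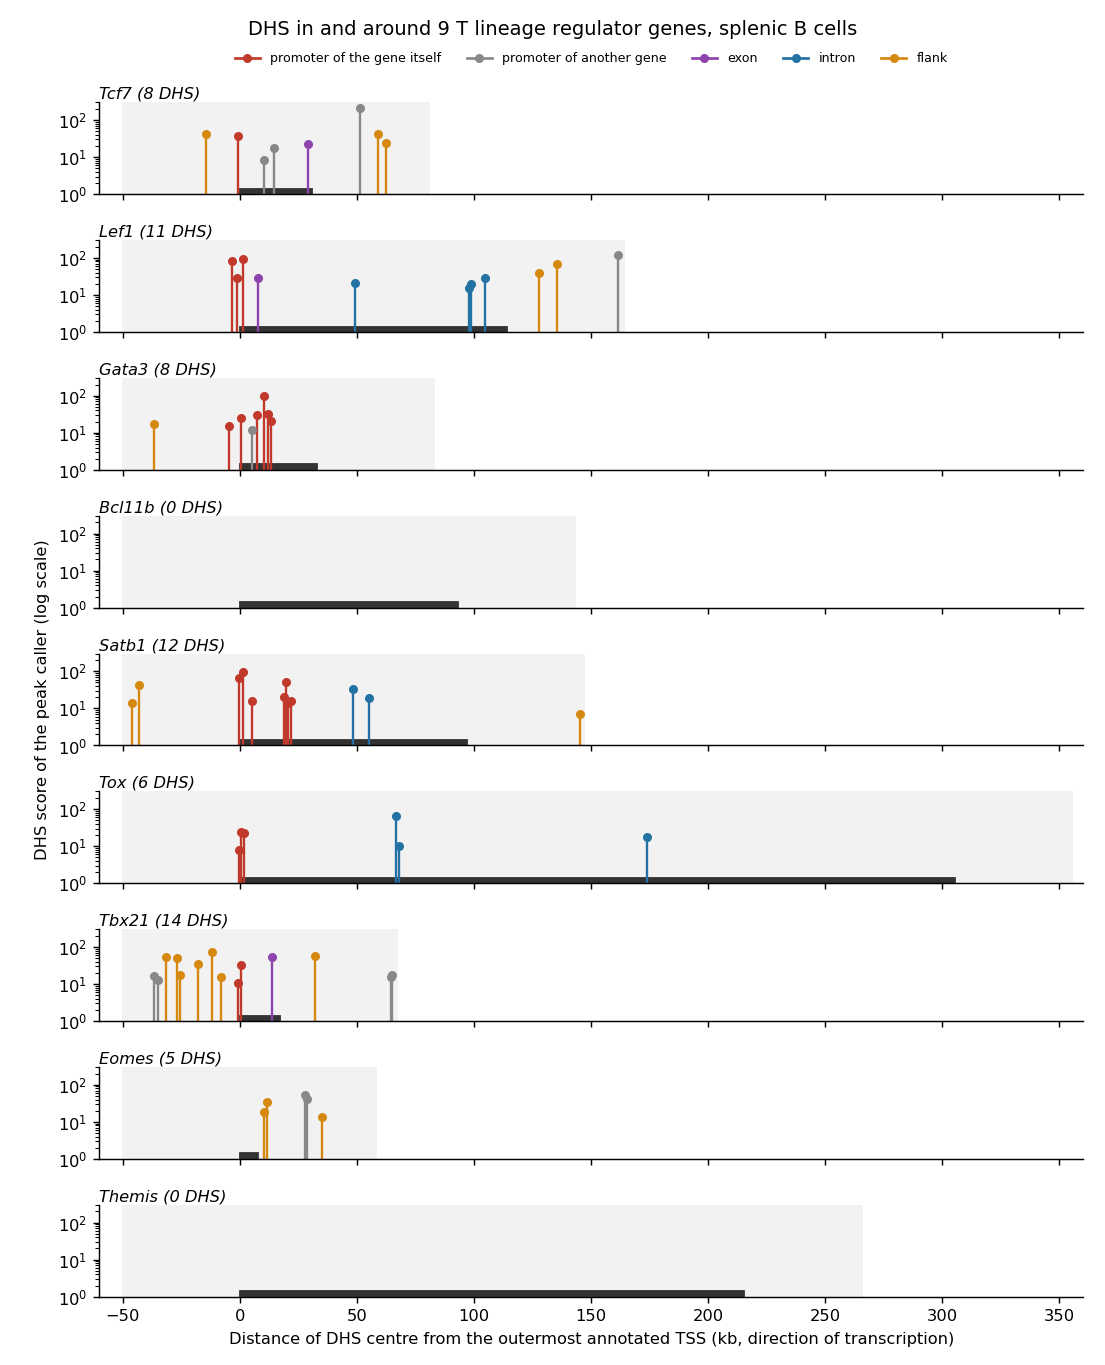
DHS in and around the 9 genes. Each stem is a DHS placed by the distance of its centre from the outermost annotated TSS in kb in the direction of transcription, its height is the score of the peak caller on a log scale, the dark bar is the gene body, the pale band is the body with 50 kb on either side, and colours give the position class. Bcl11b and Themis hold 0 DHS, Eomes holds DHS only beyond its end, and Tbx21 holds the most with 14, of which 4 remain with flanks of 10 kb.

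The pair of HMG-box factors that respond to Wnt and Notch signals, Tcf7 and Lef1, differed in the extent of their promoter openings. Lef1 (ENSMUSG00000027985.8, chromosome 3, 130813389 to 130927274, plus strand) had 11 DHS in a window of 213.9 kb, or 5.14 per 100 kb (95% Poisson interval 2.57 to 9.20). Of these, 3 were promoter DHS with scores of 81.7, 29.4 and 91.5, and all 3 annotated TSSs were covered. With peaks less than 500 bp apart joined they formed 1 DHS. The strongest spanned 130813165 to 130816475, and its 3311 bp made it the widest of the 64 DHS, at percentile 99.3 of all widths. Upstream of it lay another of 3079 bp, so that promoter DHS covered 7219 bp in all. Inside the gene were 1 DHS that touched an exon (29.1) and 4 intronic ones with scores from 15.8 to 27.9. The highest score in the window, 117, belonged to the promoter of the neighbouring gene Hadh, an enzyme of fatty acid oxidation, and the 2 remaining DHS (39.15 and 67.0) lay in the body of Hadh.

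Tcf7 (ENSMUSG00000000782.8, chromosome 11, 52065873 to 52096681, minus strand) had 8 DHS in 130.8 kb, or 6.12 per 100 kb (2.64 to 12.1). A single promoter DHS of 983 bp, from 52096971 to 52097953, scored 38.2. Its edge was 290 bp from the outermost TSS, and none of the 4 annotated TSSs was covered, although 3 of them lie in CpG-rich sequence. Among the genes with a promoter DHS this top promoter score was at percentile 14.7, against 43.8 for Lef1. The other DHS were 1 that touched an exon (22.3), 3 in the flanks (23.55, 42.4 and 43.2) and 3 at promoters of other genes. The last included the highest score in any of the 9 windows, 211 at percentile 97.0 of all DHS, at the promoter of Skp1a, a ubiquitin ligase subunit, and of Gm12207. The others, at 17.4 and 8.3, lay inside Tcf7 at promoters of the noncoding loci Gm16953 and A630014C17Rik, which both extend beyond it. The promoter DHS of Tcf7 itself also lies in the body of A630014C17Rik. The DHS that touched an exon (22.3) and the flank DHS of 23.55 and 42.4 lie in the body of Gm16953.

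Gata3, a zinc finger factor of early T cell development and of type 2 helper cells, had the most promoter sequence in DHS. The gene (ENSMUSG00000015619.9, chromosome 2, 9778705 to 9811661, minus strand) had 8 DHS in 133.0 kb, or 6.02 per 100 kb (2.60 to 11.9), and 6 of them were promoter DHS. The DHS over the outermost TSS scored 25.3. The strongest, 96.0 at 9800568 to 9802518, lay 10118 bp inside the gene, next to an internal TSS. Around it were DHS of 31.3, 20.3 and 30.5, the last 2504 bp wide, and 1 of 15.3 was centred 4806 bp upstream, just inside the promoter limit. In total promoter DHS covered 8635 bp, and 3 of 6 TSSs were covered. The DHS of 11.7 at 2976 bp downstream of a Gata3 TSS fell just outside the promoter limit and was placed at the promoters of 4930412O13Rik and 9230102O04Rik. Promoters of these neighbouring loci and of Gm13256 overlap 5 of the 6 promoter DHS, which therefore cannot be divided between them and Gata3. The 1 flank DHS (17.2) was in the body of Taf3, a subunit of a general transcription factor. Downstream the pattern broke off: no DHS was called from 6794344 to 9798019, a stretch of 3003676 bp that includes the 3' part of Gata3 and 2 other protein-coding genes, Gm10115 and Gm10855. Of 47454 gaps between neighbouring DHS, 95 were longer, and the median gap was 7211 bp.

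Bcl11b, the zinc finger factor of T cell commitment, was without a DHS. The gene (ENSMUSG00000048251.9, chromosome 12, 109148613 to 109241812, minus strand) and its flanks, 193.2 kb in all, held 0 DHS, which allows up to 1.55 per 100 kb if 3 counts are taken as the floor (upper Poisson limit 1.91). The nearest DHS was 174852 bp from its TSS. The gene lay wholly in a stretch of 2.12 Mb without a DHS (107294593 to 109416663), which was exceeded by 181 of the 47454 gaps and held 1 other protein-coding gene, 3110018I06Rik. No base of the window is unknown in the assembly. A window free of DHS is frequent, being found at 23.0% of all protein-coding genes and at 600 of the 2593 genes whose window is as long or longer. The absence of a promoter DHS was less usual for its base composition. Both Bcl11b TSSs are CpG-rich, meaning that the surrounding 1000 bp reach 55% GC and that CpG occurs at 0.6 or more of the frequency its bases would give (56.5% and 0.790 at the outermost TSS), and 85.1% of the 9817 genes with a CpG-rich TSS had a promoter DHS.

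The 200 bases upstream of the outermost TSS are shown for Lef1, Bcl11b and Themis, on mm9 and in the direction of transcription, because Lef1 had all its TSSs in DHS and the other two had no DHS. These 3 sequences were chosen in addition to the rule for printed sequences. CpG dinucleotides are in capitals. At Lef1 (chr3:130813189-130813388, plus strand) all 200 bases lay in a DHS and 24 CpG were present. At Bcl11b (chr12:109241813-109242012, minus strand) there were 5 CpG, and at Themis (chr10:28387966-28388165, plus strand) 1, with 0 bases in a DHS at both.
Lef1: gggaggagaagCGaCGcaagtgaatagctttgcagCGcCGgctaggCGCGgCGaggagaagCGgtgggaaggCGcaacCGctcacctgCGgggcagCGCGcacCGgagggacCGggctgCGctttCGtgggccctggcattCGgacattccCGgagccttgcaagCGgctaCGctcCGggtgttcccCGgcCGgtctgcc
Bcl11b: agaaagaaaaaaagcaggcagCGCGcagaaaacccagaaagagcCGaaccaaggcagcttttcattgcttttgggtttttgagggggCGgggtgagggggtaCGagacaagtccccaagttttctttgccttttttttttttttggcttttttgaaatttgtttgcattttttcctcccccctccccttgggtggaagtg
Themis: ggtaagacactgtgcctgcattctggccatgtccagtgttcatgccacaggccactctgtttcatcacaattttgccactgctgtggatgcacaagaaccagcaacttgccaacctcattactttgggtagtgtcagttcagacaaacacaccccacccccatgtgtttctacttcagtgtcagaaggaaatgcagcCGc

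Themis (ENSMUSG00000049109.8, chromosome 10, 28388166 to 28603624, plus strand) had 0 DHS in the widest but one of the windows, 315.5 kb, which allows up to 0.951 per 100 kb by the floor (upper Poisson limit 1.17). Unlike Bcl11b it is not CpG-rich at any TSS, with 43% GC and a CpG ratio of 0.131 at the outermost, and only 35.1% of the 12533 genes of that kind had a promoter DHS. The stretch without a DHS ran over 2.51 Mb (26520265 to 29032499), and 143 gaps were longer. It took in 7 protein-coding genes, Themis included, and among them were Lama2, a laminin chain of muscle and nerve, and Ptprk, a receptor phosphatase whose locus adjoins Themis. Of the 863 genes with a window at least as long, 293 had 0 DHS.

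Satb1 and Tox, which shape chromatin and transcription during thymocyte selection, differed in density. Satb1 (ENSMUSG00000023927.7, chromosome 17, 51875512 to 51972615, minus strand) encodes a nuclear protein that binds AT-rich DNA and organises chromatin loops. It had 12 DHS in 197.1 kb, or 6.09 per 100 kb (3.15 to 10.6), and no promoter of another gene was involved. The 7 promoter DHS belonged to several groups of TSSs. Around the outermost TSS were DHS of 64.7 (51972295 to 51973850) and 95.7 (51970338 to 51971857). The DHS of 15.4, centred 5041 bp inside the gene, was a promoter DHS through a separate group of TSSs without CpG-rich sequence. Centred from 18786 to 21948 bp inside the gene, at a further group of annotated TSSs, some with CpG-rich sequence, were DHS of 51.0, 20.7, 14.3 and 16.2. Of 15 TSSs, 3 were covered. Outside the promoters 2 intronic DHS (19.4 and 32.9) and 3 flank DHS (43.6, 13.7 and 6.98) were found. The last, at percentile 0.429, was among the weakest of the whole list.

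Tox (ENSMUSG00000041272.5, chromosome 4, 6613500 to 6918704, minus strand), an HMG-box factor needed for CD4 T cells, spans the longest window of the 9, 405.2 kb, and had 6 DHS, or 1.48 per 100 kb (0.543 to 3.22). The 3 promoter DHS, which also formed 1 when joined, were weak, with scores of 24.7, 23.4 and 7.88, and the top promoter score was at percentile 8.17 of genes with one. They covered 2 of 4 TSSs and left the outermost uncovered by 105 bp. Of 3 intronic DHS with scores of 18.05, 9.92 and 67.3, the highest, 66608 bp inside the gene, exceeded all promoter DHS of Tox. Of the 3 genes with both intronic and promoter DHS (Lef1, Satb1 and Tox), only Tox had its highest score in an intron.

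The T-box factors Tbx21, of type 1 helper cells and also of some activated B cells, and Eomes, of cytotoxic and natural killer cells, differed at their starts. Tbx21 (ENSMUSG00000001444.2, chromosome 11, 96959385 to 96976645, minus strand) had 14 DHS in 117.3 kb, or 11.9 per 100 kb (6.53 to 20.03), the highest density of the 9 genes and at percentile 93.2 of protein-coding genes. With 10 kb on either side Tbx21 had 4 DHS, or 10.7 per 100 kb, and was passed by Gata3 with 7 DHS, or 13.2 per 100 kb. Its single TSS was covered by a DHS of 32.4, with a second promoter DHS of 10.54, and the promoter of a pseudogene, Gm11572, overlaps both. The stronger DHS were elsewhere: 71.9 centred 11952 bp upstream, 57.55 beyond the end of the gene and 52.35 over an exon. A flank DHS of 15.4 lay nearer, centred 7898 bp upstream. Beyond the DHS of 71.9 followed flank DHS of 35.65, and then of 17.7, 50.3 and 52.2 in the body of Tbkbp1, a binding partner of the kinase Tbk1. Promoters of other genes held 4 DHS, of 12.9 and 16.1 at Tbkbp1 and of 17.5 and 15.9 at Osbpl7, a lipid-binding protein gene, and Gm11574.

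Eomes (ENSMUSG00000032446.8, chromosome 9, 118387330 to 118395250, plus strand) had 5 DHS in 107.9 kb, or 4.63 per 100 kb (1.504 to 10.8), all downstream of the gene. None of its 3 TSSs, all CpG-rich, was nearer than 9205 bp to a DHS. The whole gene lay in a stretch of 0.337 Mb without a DHS. Downstream, the first DHS scored 18.05 and 34.5. The next 2 (53.5 and 41.5) were at the promoter of Golga4, a Golgi protein gene, and the last (13.6) was in its body. Only 3 of the 5 DHS were therefore not at another gene's promoter, and none was at that of Eomes.

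As examples, sequences are given for Tcf7, Gata3 and Tbx21, where the central 200 bases of the highest-scoring DHS, leaving out annotated exons and DHS that were only at promoters of other genes, held 1 of the 11 binding words that were searched (spelled out further on). They are given on the plus strand of mm9 to show the sequence in which these openings lie, with the words in capitals. For Tcf7 (chr11:52110997-52111196, upstream flank) and Tbx21 (chr11:96988497-96988696, upstream flank) the word is the core of the CTCF motif, read on the opposite strand. For Gata3 (chr2:9801443-9801642, in a DHS at promoters of Gata3 and of its neighbours 4930412O13Rik and Gm13256) it is the EBF word.
Tcf7: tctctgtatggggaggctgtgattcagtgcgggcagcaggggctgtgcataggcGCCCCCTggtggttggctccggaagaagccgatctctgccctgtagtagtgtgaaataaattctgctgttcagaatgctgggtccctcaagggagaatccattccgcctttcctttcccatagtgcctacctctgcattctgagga
Gata3: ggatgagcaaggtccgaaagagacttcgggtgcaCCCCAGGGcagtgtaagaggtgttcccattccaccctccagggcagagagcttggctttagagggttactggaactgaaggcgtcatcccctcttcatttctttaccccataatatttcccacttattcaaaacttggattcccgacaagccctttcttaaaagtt
Tbx21: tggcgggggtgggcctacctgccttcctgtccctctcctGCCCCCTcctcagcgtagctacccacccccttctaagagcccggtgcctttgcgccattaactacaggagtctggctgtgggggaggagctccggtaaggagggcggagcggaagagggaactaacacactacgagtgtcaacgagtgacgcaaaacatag

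**Figure D2:**
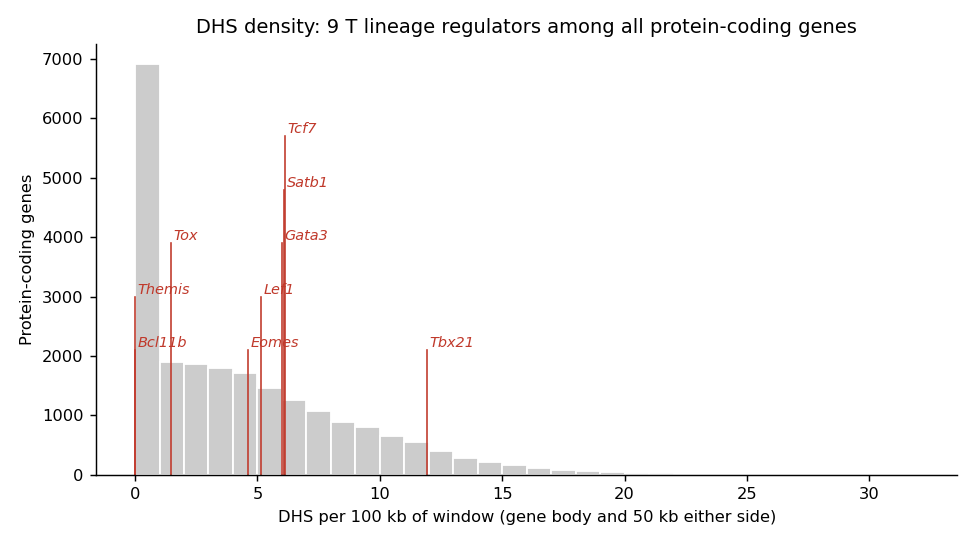
DHS density of the 9 genes among all protein-coding genes. The grey bars count protein-coding genes by DHS per 100 kb of gene body and 50 kb on either side, in steps of 1 DHS per 100 kb, and red lines mark the 9 genes, their height being only for legibility. Bcl11b and Themis are at 0, Tox is at 1.48, Tbx21 at 11.9, and the other 5 lie between 4.63 and 6.12.

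Set against all protein-coding genes, the 9 genes lay between 0 and percentile 93.2 of DHS density. Their median density was 5.14 per 100 kb, against 3.38 over the 22350 genes (quartiles 0.662 and 6.91). The Poisson intervals of Tcf7, Satb1, Gata3, Lef1 and Eomes overlapped widely, so that these neighbours in the order did not differ beyond counting error. With flanks of 50 kb, Tbx21 at the upper end and Tox at the lower had intervals that did not overlap. The upper limit for Themis (1.17) lay under the lower limits of the 6 genes other than Tox with a DHS. These intervals treat each DHS as independent. With peaks less than 500 bp apart joined, Tox had 3 DHS, from 6, and Tbx21 12, from 14. With flanks of 10 kb Tbx21 had 4 DHS, or 10.7 per 100 kb, and Tox 6, or 1.84. No intervals were computed for these counts. The share of genes with a promoter DHS was 66.7% (6 of 9, exact interval 29.9 to 92.5), against 57.0% of all protein-coding genes. Of the 7 genes with a CpG-rich TSS, 5 had a promoter DHS, and Bcl11b and Eomes lacked one. Of the other 2, Gata3 had one and Themis had none. Neither count can be told apart from the general shares at this number of genes. In all, 12 of 43 annotated TSSs of the 9 genes were covered by a DHS, and these belonged to 5 genes.

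By position, 22 of the 64 DHS (34.4%, 22.9 to 47.3) were at a promoter of the 9 genes, 11 (17.2%) at the promoter of another gene, 3 touched an exon, 9 were in introns and 19 in flanks. Of the 64, 31 overlapped no promoter, as did 24945 of the 47474 DHS on chromosomes 1 to 19 and X, the other 47.5% overlapping one. The median score was 25, against 32.65 in the list as a whole, and 25 of 64 (39.1%) were at or above that median. Of the 22 promoter DHS, 17 were under the median of all promoter DHS (53.3), and their own median was 27.4. The 31 DHS at no promoter had a median score of 27.9, close to the 24.3 of all distal DHS. The median width was 805.5 bp, against 760 bp. Only 1 of the 64 was in the highest 10% of scores, and it was the one at the Skp1a promoter.

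**Figure D3:**
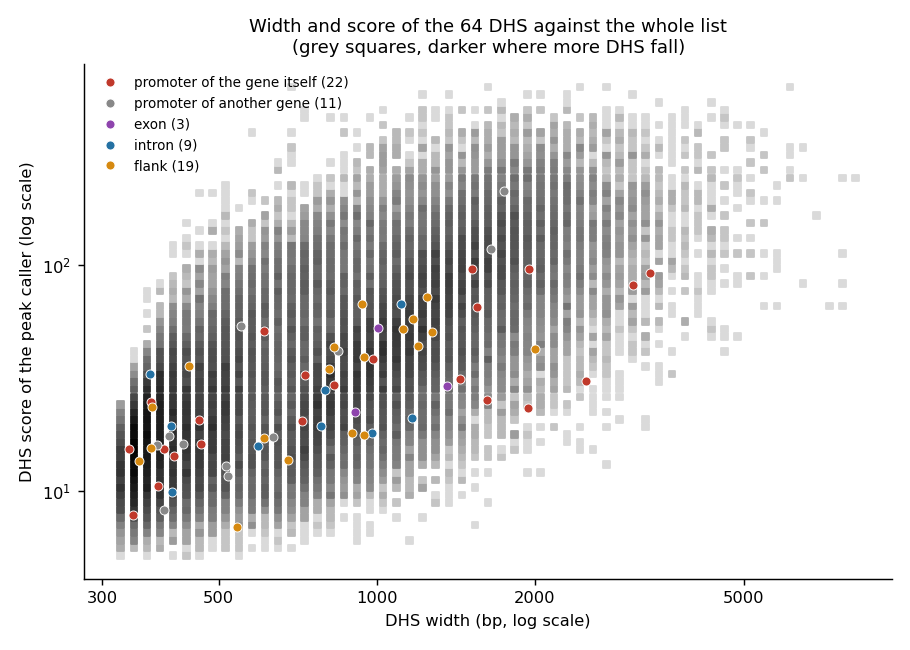
Width in bp against the score of the peak caller, both on log scales, for the 64 DHS (coloured by position class) over all DHS of the list (grey squares, darker where more DHS fall). The 64 DHS span 337 to 3311 bp, and the widest promoter DHS, at Lef1 and Gata3, lie in the lower part of the scores seen at their width.

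Several wide promoter DHS had scores that were modest for their width. The second Lef1 DHS (3079 bp, 81.7) and the Gata3 DHS of 2504 bp (30.5) were at percentiles 98.9 and 97.6 of width, but at 79.1 and 47.3 of score. At Tox a promoter DHS of 1946 bp scored 23.4, at percentiles 93.4 and 36.8. Because scale and caller settings are unknown, no more than the order can be read from these values.

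The 9 genes were next placed beside lists of other regulators. These lists were chosen with earlier results of these data known, so differences between them are descriptions only. Of 20 other regulators of T lineage cells, 16 had a promoter DHS (80%, 56.3 to 94.3), with a median top promoter score of 122 (25.3 to 225). The 4 without one included Zbtb16, a factor of innate-like T cells, Rora, a nuclear receptor of innate lymphoid cells, and Tox2, a relative of Tox. Many genes of this list, such as Notch1 and Runx1, are also used by B cells or their progenitors. All 15 B cell transcription factors had a promoter DHS (78.2 to 100), and their top scores ran from 116.2 to 445.74 with a median of 163. The top promoter scores of the 6 genes with a promoter DHS ran from 24.7 to 96.0 with a median of 64.8, all below the lowest B cell factor. The median of all protein-coding genes with a promoter DHS was 101 (quartiles 59.01 and 152).

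Of 16 genes of the T cell receptor and its signalling, 5 had a promoter DHS (31.3%, 11.02 to 58.7), an interval that overlapped that of the 9 genes. None of the 16 had a CpG-rich TSS, and the share over all genes of that kind was 35.1%. Of the 9 genes, 7 had a CpG-rich TSS, so the 2 lists also differ in base composition. The 5 genes are named here. They were Cd247, the zeta chain of the receptor (32.8), the adhesion receptor Cd2 (82.2), Cd5, an inhibitory receptor that some B cells carry (97.7), the kinase Lck (92.8) and the adaptor Lat (24.5). Of 15 transcription factors of other tissues 4 had one (26.7%, 7.79 to 55.1). Neurog2, of neurons, scored 120.47, while Pax6, of eye and brain, scored 11.2, Nkx2-5, of the heart, 15.1, and Hnf4a, of the liver, 29.5. By density the order of medians was 9.90 DHS per 100 kb for B cell factors, 6.23 for T cell receptor genes, 5.14 for the 9 genes, 5.06 for the other T lineage regulators and 1.74 for factors of other tissues. The ranges of all these lists overlapped, and the differences were not tested.

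**Figure D4:**
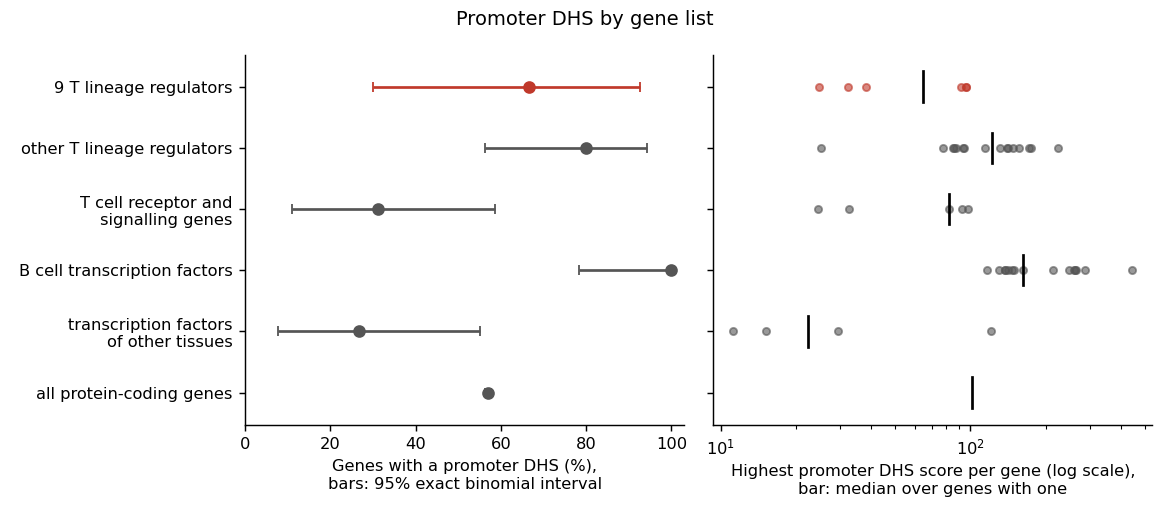
Promoter DHS by gene list, the lists being chosen with earlier results of these data known. On the left are the percentages of genes with a promoter DHS with 95% exact binomial intervals, and on the right the highest promoter score of each gene with one, on a log scale, with bars at the medians. The interval of the 9 genes runs from 29.9 to 92.5%, and their 6 scores, up to 96.0, lie under those of all 15 B cell factors, which start at 116.2.

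Finally, the central 300 bp of each DHS were searched on both strands for 11 short words that lymphocyte factors bind. These were ATCAAAG for TCF/LEF, TGTGGTT for RUNX, CCGGAAGT for ETS, GAGGAAGT for PU.1, AGATAA for the GATA family, CAGCTG for E-box factors of the E2A type with CAGGTG as an alternative E-box, CCCNNGGG for EBF, AGGTGTGA for T-box factors, ATTTGCAT for octamer factors and AGGGGGC as the core of the CTCF motif. Some overlap, since the ETS and PU.1 words share their last 6 letters and the T-box word shares letters with the alternative E-box. A match is only a description of letters. For most words the share among the 64 DHS was near that among all DHS: TCF/LEF 3.13 against 3.76%, RUNX 4.69 against 6.80%, ETS 1.56 against 1.68%, PU.1 1.56 against 3.61%, GATA 7.81 against 11.2%, the E-box of the E2A type 15.6 against 17.5% and the alternative E-box 23.4 against 24.1%. Each of these general shares lay inside the exact interval of the 64, and for TCF/LEF, RUNX, ETS and both E-boxes the order of the paired shares turned under at least 1 alternative. The words of TCF/LEF, GATA and T-box factors, the families to which 5 of the 9 genes belong, were found at no higher share near these genes in these windows. At distal DHS the TCF/LEF word was in 6.45% of 31 against 4.48%, and in the central 200 bp in 3.13% of 64 against 2.46%. The T-box word was in 0 of 64, which allows up to 5.60%, against 1.47%. The CTCF core was in 7 DHS (10.9%) against 8.07%, and the EBF word in 13 (20.3%, 11.3 to 32.2) against 12.7%, an order that turned to 4.69 against 8.68% in the central 200 bp.

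**Figure D5:**
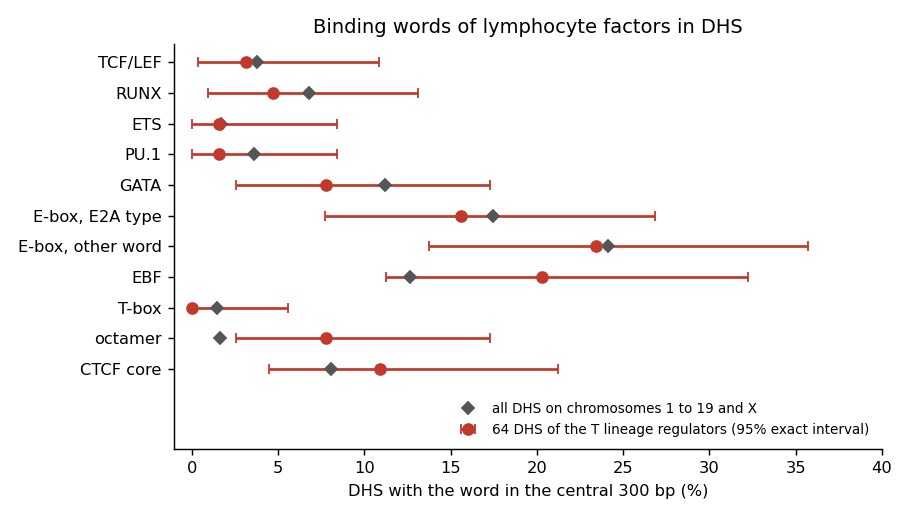
Share of DHS that hold each word in their central 300 bp, in percent. Red points are the 64 DHS with 95% exact intervals and grey diamonds are all DHS on chromosomes 1 to 19 and X. The octamer is the one word whose general share (1.63%) lies below the interval of the 64 DHS (2.59 to 17.3%).

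The octamer was the exception in the central 300 bp. It is the word of Pou2f2 and its coactivator Pou2af1, both prominent in B cells, and of related factors in all cells. It was present in 5 of the 64 DHS (7.81%, 2.59 to 17.3), against 1.63% of all DHS. These 5 belonged to the windows of Tcf7 (2), Lef1 (1) and Satb1 (2), and both at Tcf7 also lay in the body of the noncoding locus Gm16953. With 11 words searched, 5 matches are few, and the share was 3.13% against 1.08% when only the central 200 bp were searched. The exact interval for 3.13% of 64 DHS is 0.381 to 10.8, which includes 1.08%, so the octamer did not stand out there. All 5 lay in DHS of modest score, 42.4 and 22.3 at Tcf7, 29.1 at Lef1 and 19.4 and 20.7 at Satb1, and outside annotated exons. Of these, 4 are shown with their surroundings on the plus strand of mm9, at chr11:52037722-52037751 and chr11:52067838-52067867 for Tcf7, chr3:130821020-130821049 for Lef1, and chr17:51953683-51953712 for Satb1. The octamer is in capitals, and in all but Lef1 it reads on the minus strand.
Tcf7, downstream flank: agttcttccccATGCAAATatagagcatca
Tcf7, gene body: tagtagaagaaATGCAAATtaactgttgtt
Lef1, gene body: tggtgacttgaATTTGCATtacaaacaatt
Satb1, inner promoter: aaggacgagatATGCAAATgaagctcttta
Of the 5, only that of the inner Satb1 promoter group was in a promoter DHS, and the others lay from 5250 to 58142 bp from the nearest TSS of their gene, measured from the DHS centre.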

How the data were processed

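DNase-seq was performed on 1 DNaseI library, and the input library was not analysed here. The authors titrated the enzyme, chose by qPCR which digest to sequence, and deposited a peak list with positions, peak names of the MACS caller and a score. The deposited score has no stated scale. The submitters' processing notes name BWA 0.6.2, SAMtools and the genome build mm9. The version, settings and control of the caller are not stated for the DNaseI library, and a peak list without read counts leaves the depth unknown.

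Positions were converted to count from 1 and overlapped, by at least 1 bp, with GENCODE M1 on NCBI build 37 (mm9) in Python 3.11.15 with numpy 2.4.6, scipy 1.17.1 and pysam 0.24.0, and figures were drawn with matplotlib 3.10.9. The overlap step was tested on simulated peaks. All listed genes were found in the annotation, with Spi1 under its older symbol Sfpi1. Each DHS was assigned to the first class that applied, in the order promoter of the gene itself, promoter of another gene, exon, intron and flank. A gene was called CpG-rich when any of its TSSs was. Intervals are at the 95% level, exact binomial for shares and exact Poisson for densities. They describe counting error alone. Percentiles are shares of DHS or genes with a lower value.

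The members and lists were chosen with earlier results of these data known. Named were all members with their promoter DHS and highest-scoring DHS, genes whose promoter or body held a DHS of a window, and, of each list, the genes without a promoter DHS where fewer than 6 lacked one, otherwise those with one where fewer than 6 had one, except the erythroid markers without one. Lama2, Ptprk and the other genes inside stretches without a DHS, the T cell markers without a promoter DHS, Klf1, Notch1 and Runx1 were named in addition, after their values had been seen. Sequences are the central 200 bp of the highest-scoring DHS of each gene whose centre lies outside annotated exons, leaving out DHS classed at the promoter of another gene, besides those said to be additional, and some sequences and list genes are not reported here. The alternatives were only DHS at or above the median score, peaks less than 500 bp apart joined, a promoter of 1 kb on either side, overlap judged by the peak centre, TSSs of protein-coding transcripts only, flanks of 10 and 100 kb, a word window of 200 bp and distal DHS only.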

Additional observations from a re-analysis of the deposited data

How the results depend on the processing

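No paired analysis was possible because there is 1 library and no result comes from a test. Of 185 values under the alternatives, 150 stayed within their interval or, for counts, within 1.5 times, and 35 moved further. These are counts and shares without a sign, and the order of a word's share against the general share did turn in several cases. Keeping only DHS at or above the median score lowered the DHS in the windows from 64 to 25. Promoter DHS then remained at 4 of the 9 genes, since those of Tox and Tbx21 all fell away, and the numbers fell from 6 to 1 at Gata3 and from 7 to 3 at Satb1. Under every other alternative that was run 6 of the 9 genes had a promoter DHS. Flanks of 10 and 100 kb gave 40 and 99 DHS in the windows, and a share at the genes' own promoters of 55% and 22.2% by construction, against 34.4%. Joining peaks less than 500 bp apart left 1 promoter DHS each at Lef1 and Tox, from 3. With flanks of 10 kb Tbx21 had 4 DHS, from 14, and Gata3 the highest density, a comparison added after the data were seen. Genes with a promoter DHS among the factors of other tissues, 4 in the report, numbered 1 above the median score and 2 with a promoter of 1 kb on either side, and among the myeloid and natural killer cell markers 2 in both cases, from 4. Among the words, TCF/LEF fell to 0 of 25 DHS above the median score but passed the general share at distal DHS and in the central 200 bp, PU.1 to 0 in the central 200 bp and ETS to 0 of 31 distal DHS. RUNX was above the general share with 8 against 5.86% above the median score, 4.69 against 4.65% in the central 200 bp and 9.68 against 8.43% at distal DHS. EBF fell to 4.69% in the central 200 bp, below the 8.68% of all DHS, so that its higher share did not hold there. The octamer was in 4% against 1.57% above the median score, 3.13% against 1.08% in the central 200 bp and 12.9% against 2.07% at distal DHS. The cause of these changes was not tested unless the alternative sets it by construction. The unknown depth limits every statement on a missing DHS.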
